A study of Mus musculus with 6 samples.

Results

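The S100 genes described here are S100a1, S100a3, S100a4, S100a5, S100a6, S100a8, S100a9, S100a10, S100a11 and S100a13, taken by name and through probe sets that the platform annotation assigns to exactly 1 gene. Of these 10 genes 9 were measured under that rule, by 12 of the 45101 probe sets, among 18193 genes in all. S100a11 was the gene left out, because its probe set is also assigned to the genes S100a11-ps and Gm12854. Transcripts were measured in regulatory T (Treg) cells, CD4+ cells that restrain immune responses under the transcription factor Foxp3. The cells carried human CD2 as a reporter of Foxp3, were taken from lymph node and spleen of C57BL/6 FoxP3hCD2 mice that were Batf+/+ or Batf-/-, and were measured fresh, with no culture or treatment, on 3 arrays per genotype. Batf is an AP-1 transcription factor that binds DNA with Jun proteins and with Irf4, and the comparison asks which transcripts differ when it is missing. The labels name no promoter or Cre that would restrict the deletion to T cells, so other cells of the Batf-/- mice may also have lacked Batf.

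S100 proteins are small calcium-binding proteins of the EF-hand class that work mostly as dimers. Calcium opens a hydrophobic surface on the dimer, which then binds partners such as annexins and non-muscle myosin and so affects the membrane, the cytoskeleton and cell movement. Some members are also released from cells and act on receptors such as Ager (RAGE) and Tlr4. In T cells, transcripts of several members, S100a4 and S100a6 among them, are known to be more abundant in effector and memory cells than in naive cells.

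Every value is on the log2 scale, with the median Batf+/+ array of a probe set at 0, and so shows how a gene differed between arrays but carries no measure of abundance. The deleted gene, Batf, was 7.43-fold lower on the Batf-/- arrays (-2.89 ± 0.19 SE on the log2 scale, limma adjusted p = 0.000202). A gene was called at a limma adjusted p below 0.05, and 208 of 18193 genes (1.14%) were called, 151 lower (0.83%) and 57 higher (0.313%) in Batf-/- cells. Of the 10 measured markers of Treg and CD4 T cells, Foxp3 included, 0 passed the limma threshold, and their median difference was -0.13. An unadjusted p under 0.05 was reached by 3 of these 10 markers, 2 lower and 1 higher, and by 7.69% of all genes. The higher one was Il2ra, named after its value was seen, at 0.21 ± 0.07 (SE, limma adjusted p = 0.394). The genotypes did not overlap in 6 of the 10 and in 12% of all genes. Il2ra was among these 6, with all 3 Batf-/- arrays above all 3 Batf+/+ arrays. Nearest to the threshold was Ikzf2, which encodes Helios and is named after its value was seen (-0.51 ± 0.10 SE, adjusted p = 0.0526); it passed with the median of its probe sets (adjusted p = 0.0439) and with array weights (0.0140). The mean of the 10 markers lay between -0.05 and 0.02 on the Batf+/+ arrays and between -0.17 and -0.10 on the Batf-/- arrays, and the part of this shift in the S100 values was not tested. Because levels were removed by the centring, the presence of a marker could not be judged from these values. The S100 genes were chosen by name with their log2 differences between the 2 genotypes already known, so those differences are given as a description and without a test of their own. A member is only said to have passed or missed the threshold of the fit over all genes. The labels do not say whether the 3 arrays came from separate mice, so the errors may be partly technical.

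S100a4 and S100a6 were far lower in Batf-/- Treg cells, while the other 7 measured members stayed within 0.25 of 0 on the log2 scale. S100a4, also called metastasin, binds the heavy chain of non-muscle myosin and is linked to cell motility. Its values were -0.08, 0 and 0.13 on Batf+/+ arrays 1, 2 and 3 and -3.36, -4.18 and -3.35 on Batf-/- arrays 1, 2 and 3. The genotypes were widely separated, and Batf-/- array 2 was the lowest. The mean went from 0.02 ± 0.11 in Batf+/+ cells to -3.63 ± 0.47 in Batf-/- cells (SD, n = 3 each), a log2 difference of -3.64 ± 0.20 (SE) or 12.5-fold, with a 95% interval from -4.10 to -3.19. Of all 18193 genes, 0 had a more negative difference.

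S100a6, or calcyclin, binds annexins and the calcyclin-binding protein Cacybp. Its values were 0, -0.01 and 0.23 on the Batf+/+ arrays and -2.73, -3.26 and -2.69 on the Batf-/- arrays. The pattern repeated that of S100a4, with no overlap between genotypes and Batf-/- array 2 again the lowest. The mean fell from 0.08 ± 0.14 to -2.89 ± 0.32 (SD, n = 3 each), a log2 difference of -2.97 ± 0.15 (SE, 95% interval -3.31 to -2.62) or 7.82-fold, and 3 genes had a more negative difference. Both genes are measured by 1 probe set each, so no second probe set speaks to either value. In these bulk samples, fewer cells that carry the transcript and less transcript per cell cannot be told apart.

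**Figure D1:**
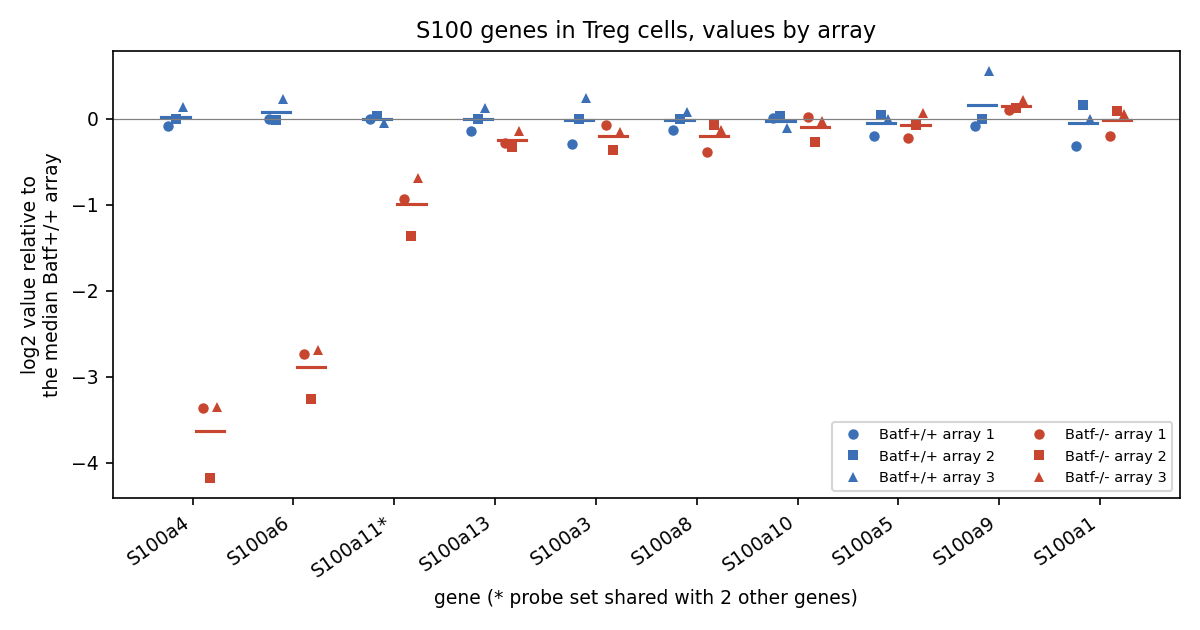
Log2 value relative to the median Batf+/+ array (vertical axis) for each listed S100 gene, with Batf+/+ arrays in blue, Batf-/- arrays in red, a symbol for each array number and a line at the mean of 3 arrays; S100a11 is shown by the probe set it shares with 2 other genes. The Batf-/- arrays lie between -4.18 and -2.69 for S100a4 and S100a6 and between -1.37 and -0.69 for the S100a11 probe set, while the other genes stay near 0.

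All 10 listed genes lie on chromosome 3 (positions from the RefSeq gene table on GRCm38.p6), spread over 3.05 Mb, and 8 of them, from S100a1 to S100a9, fall within 184.7 kb. S100a4 (chr3:90603770-90606045) and S100a6 (chr3:90612894-90614414) begin 9.12 kb apart on the plus strand. Between them, 434 bases after the end of S100a4 and 1109 bases before the start of S100a6, lies S100a5 (chr3:90606480-90611784), a gene known from olfactory neurons. The values of S100a5 were -0.20, 0.04 and 0 on the Batf+/+ arrays and -0.22, -0.08 and 0.07 on the Batf-/- arrays. The genotypes overlapped fully, with a log2 difference of -0.02 ± 0.10 (SE) and a 95% interval from -0.25 to 0.21. Next before S100a4 among the measured genes is S100a3 (chr3:90560356-90602706), known as a protein of the hair cuticle, with values of -0.29, 0 and 0.25 on the Batf+/+ arrays and -0.08, -0.36 and -0.15 on the Batf-/- arrays. Its log2 difference was -0.18 ± 0.14 (SE, 95% interval -0.49 to 0.13), and its genotypes overlapped. The 2 members with large differences stand on either side of S100a5, whose single-gene 95% interval reaches down to a 1.19-fold decrease of the measured value. The centring removed levels, so whether S100a5 was above background cannot be seen. A change in its transcript could therefore go unmeasured.

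**Figure D2:**
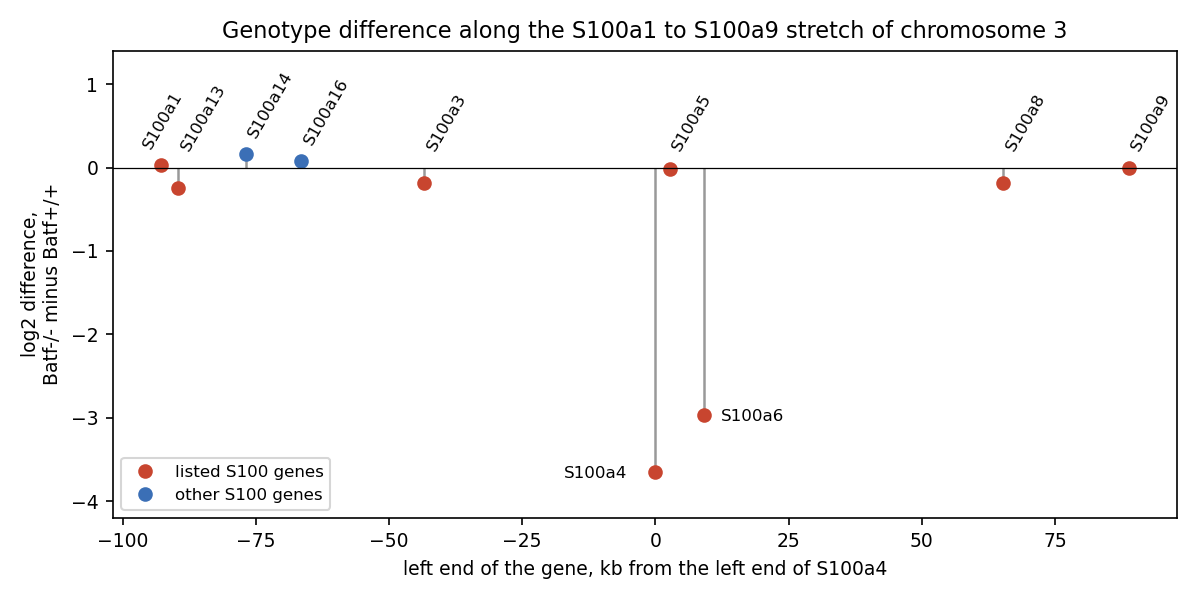
Log2 difference, Batf-/- minus Batf+/+ (vertical axis), of the S100 genes measured between S100a1 and S100a9, against the distance of each gene's left end from that of S100a4 in kb; listed members are red and other S100 genes blue. S100a4 and S100a6 stand at -3.64 and -2.97, with S100a5 between them at -0.02.

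The promoter sequences of S100a4, S100a5 and S100a6 are shown because these 3 genes are neighbours with unlike differences. That of S100a11 is shown because, of the 9 listed members with a window, it alone holds an AP-1 motif. S100a10 had no window. Each is 300 bases from RefSeq on GRCm38.p6, from 250 bases before an annotated start to 50 bases into the gene, printed 5′ to 3′ on the gene's strand. The S100a5 window belongs to a start inside the span given above for that gene, not to the left end of the span. The windows of S100a4, S100a6 and S100a11 belong to the left ends of their genes. Capitals mark the AP-1 motif TGANTCA and the TATA motif TATAAA, both searched on both strands.
S100a4 promoter, chr3:90603520-90603819, plus strand: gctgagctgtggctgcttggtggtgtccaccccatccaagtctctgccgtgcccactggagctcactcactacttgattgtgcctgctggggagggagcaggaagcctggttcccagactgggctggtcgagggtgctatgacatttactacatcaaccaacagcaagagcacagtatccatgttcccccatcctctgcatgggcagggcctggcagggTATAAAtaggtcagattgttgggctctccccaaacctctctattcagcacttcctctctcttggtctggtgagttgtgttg
S100a5 promoter, chr3:90608272-90608571, plus strand: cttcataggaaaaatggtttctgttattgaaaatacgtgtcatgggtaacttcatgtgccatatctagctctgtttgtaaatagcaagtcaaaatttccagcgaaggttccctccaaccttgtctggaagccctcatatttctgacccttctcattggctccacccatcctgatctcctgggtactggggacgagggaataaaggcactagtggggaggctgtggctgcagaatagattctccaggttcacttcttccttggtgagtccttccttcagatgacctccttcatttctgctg
S100a6 promoter, chr3:90612644-90612943, plus strand: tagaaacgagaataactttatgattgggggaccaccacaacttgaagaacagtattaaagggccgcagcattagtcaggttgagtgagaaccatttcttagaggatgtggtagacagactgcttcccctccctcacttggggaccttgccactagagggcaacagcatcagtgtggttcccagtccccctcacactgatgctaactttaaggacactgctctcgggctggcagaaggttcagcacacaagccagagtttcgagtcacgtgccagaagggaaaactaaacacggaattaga
S100a11 promoter, chr3:93520246-93520545, plus strand: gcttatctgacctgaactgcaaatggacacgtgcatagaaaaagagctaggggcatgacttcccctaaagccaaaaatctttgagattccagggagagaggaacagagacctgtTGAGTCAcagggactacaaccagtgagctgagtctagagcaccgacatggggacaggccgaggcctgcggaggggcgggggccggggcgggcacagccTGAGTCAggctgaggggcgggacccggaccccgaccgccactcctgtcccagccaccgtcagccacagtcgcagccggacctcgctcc

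The AP-1 motif TGANTCA was found in the windows of 1 of the 9 members with a promoter in the table, S100a11, which held it at 2 places beginning 136 and 38 bases before the start. It occurred in 2425 of all 27025 genes (8.97%) by the same search. Among S100 genes outside the listed members, a window of S100a16 held it 192 bases before the start. The window of S100a7l2 held it 77 bases before. The log2 differences of S100a16 and S100a7l2 were 0.08 and 0.11. The composite motifs TTTCNNNNTGANTCA and GAAATGANTCA, in which an AP-1 site, counted in the AP-1 search too, stands next to a site of the IRF type, were found in 0 of the 9 members, against 0.133% and 0.141% of all genes. A TATAAA motif began 31 bases before the start of S100a4 and 30 bases before that of S100a8, and was also found in windows of S100a3 and S100a9, while 15.7% of all genes held it. These matches describe letters in short windows, and sites farther from the genes were not searched.

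S100a10 and S100a11 are the members best known as annexin partners. S100a10, or p11, forms a complex with Anxa2 at the cell membrane and, unlike most of its relatives, does not bind calcium. Its values, averaged over 3 probe sets, were 0.01, 0.03 and -0.10 on the Batf+/+ arrays and 0.02, -0.27 and -0.02 on the Batf-/- arrays. These averages overlapped between genotypes, with a log2 difference of -0.07 ± 0.09 (SE, 95% interval -0.29 to 0.14). The 3 probe sets of S100a10 did not point the same way, at -0.27, -0.17 and 0.22, and 0 of them passed the threshold when each probe set was tested. In the probe set at -0.27 the genotypes did not overlap (95% interval -0.51 to -0.02), while in those at -0.17 and 0.22 they did. The probe set at 0.22 had the widest spread, with an SD of 0.32 in Batf+/+ and 0.40 in Batf-/- cells.

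S100a11, which pairs with Anxa1, could be read only from the probe set it shares with S100a11-ps and Gm12854. That probe set gave 0, 0.03 and -0.05 on the Batf+/+ arrays and -0.93, -1.37 and -0.69 on the Batf-/- arrays. All 3 Batf-/- arrays were below all 3 Batf+/+ arrays, and Batf-/- array 2 was the lowest, as it was for S100a4 and S100a6. The log2 difference was -0.99 ± 0.16 (SE, 95% interval -1.36 to -0.62), or 1.98-fold, and it missed the threshold over 45037 probe sets. How much of this signal belongs to S100a11 and how much to the other genes of the probe set was not tested.

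S100a8 and S100a9 form calprotectin, a secreted pair of neutrophils and monocytes that acts on Tlr4 and Ager. S100a8 gave -0.13, 0 and 0.08 on the Batf+/+ arrays and -0.39, -0.08 and -0.13 on the Batf-/- arrays, a log2 difference of -0.18 ± 0.10 (SE, 95% interval -0.41 to 0.05). S100a9 gave -0.08, 0 and 0.56 on the Batf+/+ arrays and 0.10, 0.13 and 0.22 on the Batf-/- arrays, a log2 difference of -0.01 ± 0.15 (SE, 95% interval -0.36 to 0.34). Both genes overlapped between genotypes, and the single high value of S100a9 was on Batf+/+ array 3. Of the 19 measured markers of neutrophils and monocytes (22 listed) 0 passed the limma threshold, with a median log2 difference of 0.07. At an unadjusted p under 0.05, 1 was lower and 2 were higher, where 4.44% and 3.25% of all genes were. The genotypes did not overlap in 3 of the 19 and in 12% of all genes. The mean of these markers lay between -0.09 and 0.04 on the Batf+/+ arrays and between -0.12 and 0.15 on the Batf-/- arrays. On Batf+/+ array 3, where S100a9 was highest, their mean was 0.04. The part of such cells in the S100a8 and S100a9 values was not tested.

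The remaining members have their best known roles outside lymphocytes. S100a1 regulates calcium handling in heart and skeletal muscle. Its values were -0.31, 0.16 and 0 on the Batf+/+ arrays and -0.20, 0.09 and 0.06 on the Batf-/- arrays, so array 1 was the lowest in both genotypes. The log2 difference was 0.03 ± 0.13 (SE, 95% interval -0.27 to 0.33), and its 2 probe sets gave 0.06 and -0.00059. S100a13, which takes part in the export of Fgf1 and Il1a by a route that bypasses the Golgi, begins within the S100a1 gene on the opposite strand. It gave -0.13, 0 and 0.13 on the Batf+/+ arrays and -0.28, -0.33 and -0.14 on the Batf-/- arrays. The lowest Batf+/+ value lay just above the highest Batf-/- value, and the log2 difference was -0.25 ± 0.09 (SE, 95% interval -0.46 to -0.04), which missed the threshold over all genes.

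Of the 9 measured members 2 were lower past the threshold and 0 higher, where 0.83% and 0.313% of all genes were, and the same 2 were the members at least 2-fold lower, a size reached by 0.275% of all genes. The arrays of the genotypes did not overlap in 3 members, S100a4, S100a6 and S100a13, and in 12% of all genes. The median log2 difference of the 9 members was -0.18, beside 0.0047 over all genes, and 8 of the 9 were below 0. The 7 members that missed the threshold had differences from -0.25 to 0.03 with a median of -0.07, and their 95% intervals ran from -0.49 to 0.34, so changes of up to 1.41-fold down or 1.26-fold up remained within the error. Since the members were proposed with these values known, the shares above the background describe the choice and are not evidence about the family.

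**Figure D3:**
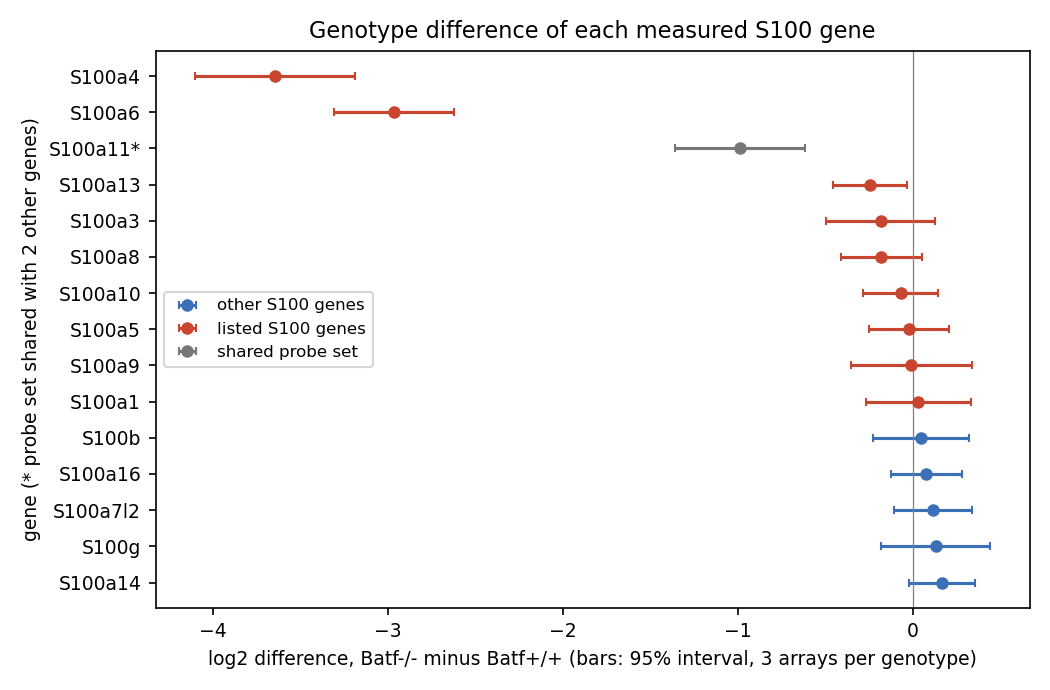
Log2 difference, Batf-/- minus Batf+/+ (horizontal axis), with its 95% interval from 3 arrays per genotype, for the 9 measured listed genes (red), 5 other S100 genes (blue) and the shared S100a11 probe set (grey). The intervals of S100a4 and S100a6 end at -3.19 and -2.62, while those of the other listed genes and the other S100 genes lie between -0.49 and 0.44.

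Of 8 other genes of the S100 family that were listed, 5 were measured, with log2 differences between 0.05 and 0.16 and a median of 0.11. The limma threshold was passed by 0 of the 5 in either direction. An unadjusted p under 0.05 was reached by 0 of the 5 and by 7.69% of all genes. The epithelial gene S100a14 differed by 0.16 ± 0.08 (SE, limma adjusted p = 0.768) and S100a16, a regulator of fat cell formation, one of 0.08 ± 0.09 (adjusted p near 1). Both lie in the cluster between S100a13 and S100a3. S100a7l2 had a log2 difference of 0.11 ± 0.10. S100b, the astrocyte member on chromosome 10, had one of 0.05 ± 0.12, and S100g, the vitamin D-dependent calcium carrier of the gut on chromosome X, one of 0.13 ± 0.14. The arrays of the genotypes overlapped in all 5, while they did not overlap in 12% of all genes. S100a2, S100a7a and S100z were not analysed here.

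Farther along chromosome 3, the genes between S100a9 and S100a11 are mostly those of the skin barrier, such as loricrin, involucrin and the small proline-rich proteins, which are not known as T cell products. Of the 37 measured genes between the outermost S100 genes 0 passed the limma threshold. An unadjusted p under 0.05 was reached by 1 of the 37 and by 7.69% of all genes. Their median log2 difference was -0.02, with a range from -0.27 to 0.21, and 19 of the 37 were below 0. The 5 measured fused-type S100 genes (7 listed), large skin proteins such as filaggrin that begin with an S100 domain, lie in the same stretch, and their differences ranged from -0.08 to 0.08, with 0 past the limma threshold or an unadjusted p under 0.05.

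Of 20 listed binding partners of S100 proteins 17 were measured, and 0 passed the limma threshold in either direction, with a median log2 difference of -0.02. An unadjusted p under 0.05 was reached by 1 of the 17 and by 7.69% of all genes. The value of Anxa2, the partner of S100a10, was -0.13 ± 0.11 (log2 difference, SE, limma adjusted p = 0.978). Cacybp, the partner of S100a6, stood at 0.11 ± 0.10 (adjusted p = 0.982). Myh9, the myosin heavy chain bound by S100a4, stood at -0.11 ± 0.08 (adjusted p = 0.936). Anxa1, the partner of S100a11 and an inhibitor of inflammation, had the lowest value of the list, -0.42 ± 0.12 (adjusted p = 0.228), and is named after its value was seen. Its Batf+/+ arrays gave -0.06, -0.01 and 0.34 and its Batf-/- arrays -0.22, -0.34 and -0.43, without overlap. The genotypes did not overlap in 3 of the 17 partners and in 12% of all genes. Besides Anxa1 these were Ahnak (-0.14) and Anxa6 (-0.12), also lower and named after their values were seen.

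Of 9 measured receptors and signal adaptors of extracellular S100 proteins 1 was lower and 0 were higher, where 1.14% of all genes were called, with a list median of -0.01. The one that fell was Alcam, an adhesion molecule (CD166) that binds CD6 on T cells and has been described as a receptor of S100b. Alcam gave 0.22, -0.05 and -0.04 on the Batf+/+ arrays and -0.63, -0.90 and -1.06 on the Batf-/- arrays. The genotypes did not overlap, and the log2 difference was -0.91 ± 0.12 (SE, limma adjusted p = 0.00929) or 1.88-fold. All 5 probe sets of Alcam were lower, between -1.27 and -0.59, and 3 of them passed when every probe set was tested. The receptors best known for S100 ligands missed the threshold, Ager at 0.18 ± 0.09 (adjusted p = 0.742) and Tlr4 at 0.0039 ± 0.08 (adjusted p near 1). Of 29 measured EF-hand proteins outside the family (34 listed) 0 passed the limma threshold in either direction. Among them were calcineurin chains, Stim1 and Stim2, calpains and alpha-actinins. Their median was -0.02, with a range from -0.19 to 0.23. An unadjusted p under 0.05 was reached by 3 of the 29 and by 7.69% of all genes.

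**Figure D4:**
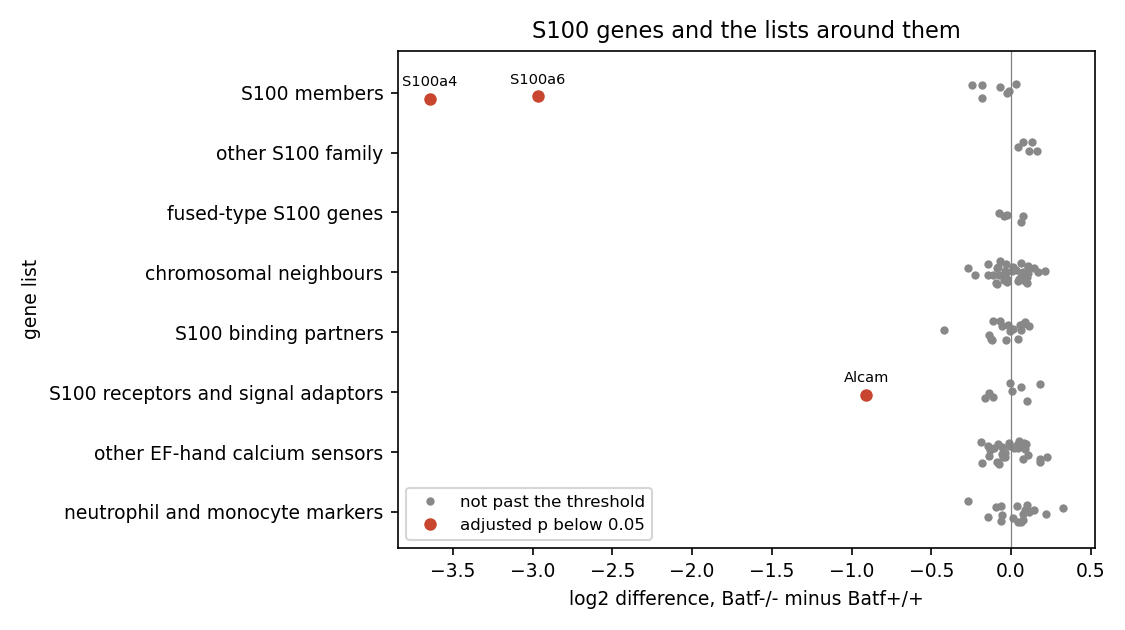
Log2 difference, Batf-/- minus Batf+/+ (horizontal axis), of each measured gene in the S100 list and in 7 lists around it (rows; the vertical scatter within a row has no meaning), with genes past the limma threshold in red. S100a4, S100a6 and Alcam are the red points, at -3.64, -2.97 and -0.91, and all other points lie between -0.42 and 0.33.

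Markers of other cell types that could be present in the sorted cells gave 1 call. In the lists for B cells (8 measured), dendritic cells (8), CD8 T and NK cells (5) and erythroid cells and platelets (5) 0 genes passed the limma threshold, with medians from 0.04 to 0.10. Of these 26 genes 4 had an unadjusted p under 0.05, all higher, as did 3.25% of all genes. They included 2 of the CD8 and NK list, named after their values were seen. The granule gene Nkg7 differed by 0.70 ± 0.15 (SE, limma adjusted p = 0.0887) and the T-box factor Eomes by 0.41 ± 0.17 (adjusted p = 0.574). The rest of that list did not follow, with Cd8a at 0.0068, Cd8b1 at 0.04 and Ncr1 at -0.15, each overlapping between genotypes. In Nkg7 and Eomes, all 3 Batf-/- arrays were above all 3 Batf+/+ arrays. The genotypes did not overlap in 2 of 5 CD8 and NK genes and in 1 of 5 erythroid and platelet genes. They overlapped in all 8 B cell and all 8 dendritic cell genes, while 12% of all genes did not overlap. Of 8 stromal and epithelial markers 1 passed, Epcam, an adhesion molecule of epithelia, at -0.53 ± 0.08 (log2 difference, SE, limma adjusted p = 0.0119). Its 2 probe sets stood at -0.92 and -0.14. Its arrays gave 0, -0.05 and -0.12 in Batf+/+ cells and -0.66, -0.58 and -0.52 in Batf-/- cells. The median of the 8 was -0.05. At an unadjusted p under 0.05, 1 was lower and 1 higher, where 4.44% and 3.25% of all genes were. The higher one was Pecam1, named after its value was seen, at 0.34 ± 0.10 (limma adjusted p = 0.258). The genotypes did not overlap in 2 of the 8 and in 12% of all genes. The part of such cells in the S100 values was not tested.

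The genes whose values over the 6 arrays were most like those of S100a4 and S100a6 were found by the root mean square difference on the log2 scale. For S100a4 the nearest were Gpr15, a homing receptor for the colon (0.25), Itgae, the CD103 integrin chain (0.45), S100a6 (0.53), Batf itself (0.58) and the protease inhibitor Ctla2a (1.10). For S100a6 they were Batf (0.22), Gpr15 (0.35), Itgae (0.45), S100a4 (0.53) and the transcription factor Npas4 (0.62). This measure is set mainly by the size of the genotype difference, which was -3.45 for Gpr15, -3.19 for Itgae, -2.17 for Ctla2a and -2.12 for Npas4. Within the Batf-/- arrays the order differed between these genes. Gpr15 gave -3.08, -3.67 and -3.34, with array 2 the lowest as in S100a4 and S100a6. Itgae gave -3.01, -3.30 and -3.59 and Batf gave -3.13, -3.16 and -2.37, so array 3 was the lowest for Itgae and the highest for Batf.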

How the data were processed

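Values of the 6 arrays were used as deposited. They were taken as log2 values, which the authors had made with RMA according to the submitters' processing notes. Neither version nor log base is given there. In all 45101 probe sets the middle of the 3 Batf+/+ values is exactly 0: the values had been centred on the Batf+/+ median, which removes levels and signal over background and narrows the spread of values over all genes on the Batf+/+ arrays, but not the spread between arrays of a gene. Labelling was by a 3' in vitro transcription kit, per the labels' protocols.

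Of the probe sets 34945 had 1 gene in the platform annotation, 932 several and 9160 none, and 64 were controls. Probe sets of a gene were averaged, giving 18193 genes. Genotypes were compared with limma 3.58.1 in R 4.3.3 (lmFit, eBayes, Benjamini-Hochberg over all genes, threshold 0.05, no filter on low values). The procedure was tested on simulated data drawn independently for each array, so that test does not cover arrays that deviate together. The number of arrays limits the precision. Intervals are 95% intervals of single genes, not adjusted for the number of genes.

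The same numbers stand in the titles of both genotypes. Across genes, arrays 1, 2 and 3 of either genotype deviated together from the group means (correlations of 0.407, 0.154 and 0.413, each above 0.1), so the numbers were taken, from the values and not the labels, to pair the arrays, and a fit with the number as a block was an alternative.

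The S100 genes and all lists were chosen with earlier results of these data known. Named genes are the S100 genes, Batf, 5 partners and receptors (Anxa2, Cacybp, Myh9, Ager, Tlr4), up to 6 called genes of each list and the 5 genes nearest to S100a4 and to S100a6. Alternatives were the median of probe sets, every probe set alone, leaving out probe sets with a suffix other than plain _at (_x_at, _s_at, _a_at), the replicate block, quantile normalization, equal array medians, array weights and leaving out each array.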

Additional observations from a re-analysis of the deposited data

How the results depend on the processing

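S100a4 and S100a6 stayed lower past the threshold wherever they were tested, in 12 and 11 fits of gene values and also when every probe set was tested, and 0 of the other measured S100 members passed in any of them. Their log2 differences ran from -3.80 to -2.83 and from -3.07 to -2.04, each smallest after quantile normalization, which puts the Batf+/+ arrays, whose spread over all genes the centring narrows, on the same distribution as the Batf-/- arrays. Leaving out 1 array gave -3.79 to -3.37 and -3.07 to -2.78. The replicate block changed neither call nor, by construction, the size of the differences (-3.64 and -2.97). With all _x_at, _s_at and _a_at probe sets left out, 1 member was called, since the single probe set of S100a6 has the suffix _a_at, which marks probes common to transcripts of the same gene. The shared S100a11 probe set, whose alternatives were chosen after seeing the data, ran from -1.14 to -0.76 and passed in 2 of 10 fits, with array weights and without Batf-/- array 3.

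Over all genes, the calls were 58 lower and 23 higher after quantile normalization and 202 lower and 91 higher with the replicate block, against 151 and 57. Leaving out 1 array gave 73 to 141 lower and 31 to 51 higher genes. The lower calls numbered 78 and 73 when Batf+/+ array 1 or 2 was left out and 94 when Batf-/- array 2 was. Alcam was called in 12 of 12 fits (adjusted p 0.00225 to 0.0440), and Epcam in 7 of 11, with adjusted p of 0.140 after quantile normalization, 0.0654 and 0.0725 without Batf+/+ array 1 or 2 and 0.0542 without Batf-/- array 2. The signs of S100a1, S100a5, S100a9 and S100a10 changed in 4, 3, 4 and 1 of 12 fits. With 1 array left out S100b ran from -0.0876 to 0.141, below 0 in 2 fits, and Tlr4 from -0.0213 to 0.0474, below 0 in 3 fits. Tlr4 was also below 0 with the median of probe sets (-0.0197), equal array medians (-0.0013) and array weights (-0.0216). The cause of these changes was not tested. The values carry no signal over background, so a floor under the low values of S100a4 and S100a6 cannot be seen and their folds may be too small. Nor can it be seen whether the members with differences near 0 were above background.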
